A study of Rattus norvegicus with 47 samples.

Results

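The genes for a neurotrophin and its receptor were followed through prefrontal cortex of newborn rats: Bdnf (ENSRNOG00000047466), which encodes brain-derived neurotrophic factor, and Ntrk2 (ENSRNOG00000018839), which encodes its receptor TrkB. They were taken by their Ensembl IDs and not by their measured values, though with earlier results of these data known. They make up 2 of the 32883 gene IDs in the count table. Both were found and both passed the filter on low counts, which 17135 IDs passed. The table pairs no ID with a name, so the names Bdnf and Ntrk2 come with the IDs and were not checked against sequence here, and the labelled tissue could not be checked against its markers.

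BDNF is a secreted growth factor that is made as a precursor and cut to its mature form. It binds TrkB, a receptor tyrosine kinase, and signalling through this pair supports neuronal survival, dendrite growth and synapse maturation. Ntrk2 also gives rise to truncated receptors without the kinase domain, and Bdnf is transcribed from several alternative starts that each splice a first exon to a common coding exon. The counts were summed per gene, so they do not tell the kinase form of TrkB from the truncated ones, nor one Bdnf start from another.

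Rats were sampled on postnatal day 1 after once-daily exposure during gestation. The control group is labelled only as control. BFR stands for the brominated compounds EH-TBB and BEH-TEBP at 1000 µg, OPFR for the organophosphates triphenyl phosphate and isopropylated triphenyl phosphate, also at 1000 µg, and FM550 for the flame retardant mixture of that name at 2000 µg, so the doses differ between groups. Poly(A) RNA was sequenced from 47 libraries: 6 females and 6 males each for control, BFR and FM550, and 5 females and 6 males for OPFR. The labels give no strain, vehicle, litter, batch or date, and nothing says that libraries of a group come from separate litters, so each p-value speaks of library-to-library spread alone. By its title, the study asks whether effects of the mixture differ by sex and whether they come largely from its organophosphate esters.

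Libraries held 41.1 to 73.4 M counted reads. Earlier results of these data had shown 3 sets of libraries apart from the rest across many genes: the control libraries titled 1 to 7 (5 of the 6 control males and 2 of the 6 control females), the OPFR libraries titled 31 to 35 (3 males and 2 females), and, among the latter, OPFR females 4 and 5. Levels are therefore given with these sets shown apart. Values are CPM, a gene's reads scaled to a common library size with TMM factors. CPM is not divided by transcript length, so levels of the 2 genes are not compared with each other.

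The Bdnf gene sequence that precedes 1 of its starts is shown because this gene is known for transcription induced by neuronal activity through a cAMP response element. RefSeq (build GRCr8) lists 6 start windows for Bdnf, each of 300 bases (250 before the start and 50 after it). The motif TCACGTCA, a cAMP response element-like sequence, was searched on both strands and lay in 1 of the 6 windows, and TGACGTCA lay in 0 of them. Over all 33469 windows of the table, 0.4% held TCACGTCA and 1.83% held TGACGTCA. The window with the match is on chromosome 3, plus strand, and the motif (capitals) ends 30 bases before the start.
Bdnf, chr3:116637768-116637857: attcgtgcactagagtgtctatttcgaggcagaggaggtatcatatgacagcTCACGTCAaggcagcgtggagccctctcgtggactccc
A match is a description of the letters only, and the counts cannot be assigned to this start.

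Bdnf was read in every library at a low level, and no difference between an exposed group and controls passed the test. It had 81 to 209 reads per library (median 112) and averaged 1.99 ± 0.33 CPM (SD, n = 47). In control females titled 1 to 7 it measured 1.68 and 1.61 CPM, and in the other 4 control females 1.75, 2.35, 2.06 and 1.69 CPM. In control males titled 1 to 7 it measured 2.14, 1.62, 1.85, 2.50 and 1.59 CPM, and 2.14 CPM in the remaining control male. Taken over both sexes, the libraries titled 1 to 7 thus lay within and on both sides of the range of the other controls. Among control females alone, both titled 1 to 7 lay below the other 4. The remaining control male lay within the range of the males titled 1 to 7. Reads are few enough for counting error to matter: the exact Poisson 95% interval of the lowest library, OPFR male 4, ran from 1.10 to 1.72 CPM, and that of the highest, FM550 male 3, from 2.75 to 3.63 CPM. These intervals cover counting error only.

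With BFR, Bdnf ranged from 1.77 to 2.20 CPM in females (median 2.09) and from 1.84 to 2.45 CPM in males (median 2.08). BFR libraries of both sexes fell inside the span of all controls, 1.59 to 2.50 CPM. OPFR females measured 1.94, 2.01, 2.24, 1.67 and 1.50 CPM, and OPFR males ranged from 1.39 to 2.32 CPM (median 2.01). FM550 females ranged from 1.72 to 2.31 CPM (median 1.85). FM550 males had the widest range of any group, from 1.43 to 3.17 CPM (median 2.21). Every exposed group overlapped with the controls of its sex, as the plot of Bdnf by group shows.

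**Figure D1:**
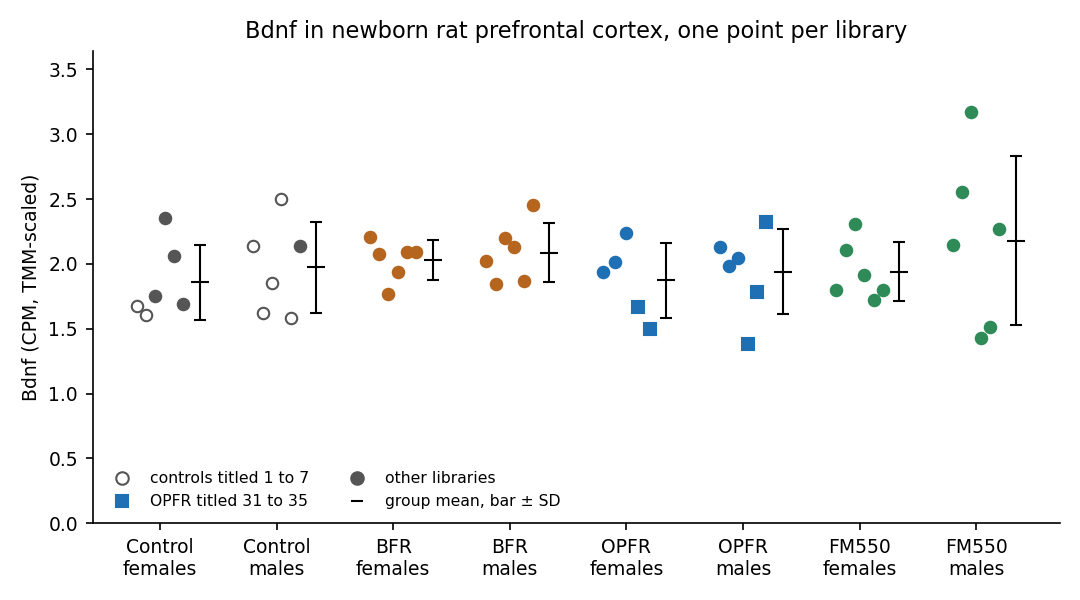
Bdnf in CPM (vertical axis, TMM-scaled, from 0) for each library of the 8 groups (horizontal axis), with the group mean and SD beside the points. Open circles are controls titled 1 to 7 and squares are OPFR libraries titled 31 to 35. All groups overlap, and FM550 males span 1.43 to 3.17 CPM.

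The order of the 8 group means for Bdnf was FM550 males (2.18 ± 0.65 CPM), BFR males (2.09 ± 0.23), BFR females (2.03 ± 0.15), control males (1.97 ± 0.35), OPFR males (1.94 ± 0.33), FM550 females (1.94 ± 0.23), OPFR females (1.87 ± 0.29) and control females (1.86 ± 0.29; SD, n = 6 each and 5 for OPFR females). The highest mean was 1.17-fold the lowest. Every neighbour in this order differed by less than the smaller of the SDs of the pair. The highest and lowest means differed by 0.32 CPM, against a median group SD of 0.29 CPM.

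Ntrk2 was read 19068 to 36535 times per library and averaged 473 ± 43 CPM (SD, n = 47). In control females titled 1 to 7 it measured 518 and 486 CPM, and in the other 4 control females 524, 478, 474 and 466 CPM. In control males titled 1 to 7 it measured 417, 485, 499, 521 and 512 CPM, and 452 CPM in the remaining control male. As for Bdnf, the first 7 controls overlapped with the other 5. Counting error was small at this depth, so the spread of Ntrk2 lay almost wholly between libraries: the within-group coefficient of variation was 9.30%, against 0.603% from counting alone. For Bdnf these coefficients of variation were 17.4% and 9.26%.

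With BFR, Ntrk2 ranged from 434 to 567 CPM in females (median 457) and from 409 to 505 CPM in males (median 462). BFR female 3 was the highest of all 47 libraries. OPFR females measured 511, 538, 521, 340 and 425 CPM, and OPFR males ranged from 378 to 497 CPM (median 454). OPFR female 4 was the lowest of all libraries and OPFR male 4 the next lowest. FM550 females ranged from 466 to 540 CPM (median 476) and FM550 males from 439 to 531 CPM (median 469), so both lay in the range of the other groups.

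**Figure D2:**
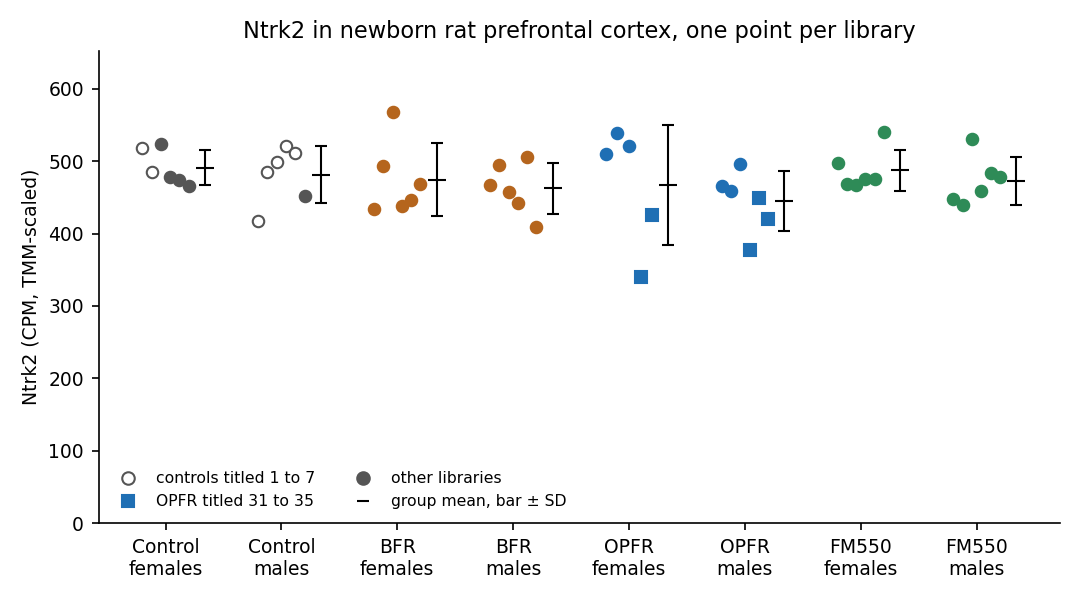
Ntrk2 in CPM (vertical axis, TMM-scaled, from 0) for each library of the 8 groups (horizontal axis), with the group mean and SD beside the points. Open circles are controls titled 1 to 7 and squares are OPFR libraries titled 31 to 35. The squares are the lower libraries of both OPFR groups, at 340 to 449 CPM.

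Control females had the highest mean Ntrk2 (491 ± 24 CPM), followed by FM550 females (487 ± 28), control males (481 ± 39), BFR females (475 ± 51), FM550 males (473 ± 33), OPFR females (467 ± 83), BFR males (463 ± 35) and OPFR males (445 ± 41; SD, n = 6 each and 5 for OPFR females). The highest mean was 1.10-fold the lowest, and each neighbour again differed by less than the smaller SD of the pair. The highest and lowest means differed by 46 CPM, against a median group SD of 37 CPM. In bulk tissue, fewer cells that express a gene and less RNA per cell cannot be told apart.

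In females, neither gene passed the test against control with any exposure. For Bdnf the log2 fold change was 0.13 ± 0.15 with BFR, 0.011 ± 0.155 with OPFR and 0.063 ± 0.148 with FM550 (SE). The edgeR adjusted p-values over all genes were 0.816, 0.976 and 0.999. For Ntrk2 the log2 fold changes were -0.050 ± 0.078, -0.072 ± 0.082 and -0.011 ± 0.078, with edgeR adjusted p-values of 0.880, 0.651 and 0.999. As background, 0% of the genes tested were called with BFR, 3.1% with OPFR and 0% with FM550 (edgeR adjusted p below 0.05). Where 0% were called, 1345 genes (BFR) and 927 genes (FM550) had an unadjusted p under 0.05.

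In males, neither gene was called, although many other genes were. Bdnf had log2 fold changes of 0.082 ± 0.147 with BFR, -0.023 ± 0.148 with OPFR and 0.15 ± 0.15 with FM550 (SE; edgeR adjusted p = 0.789, 0.944 and 0.585). Ntrk2 had -0.056 ± 0.078, -0.11 ± 0.08 and -0.024 ± 0.078 (edgeR adjusted p = 0.722, 0.373 and 0.895). The background shares called were 9.95%, 12.5% and 11.8%. The median log2 fold change over all genes tested was 0.0080, -0.0034 and -0.00013 in these comparisons. The male comparisons rest on controls of which 5 of 6 are titled 1 to 7, and with a term for those libraries 0% of genes were called in each.

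The intervals give the range of differences compatible with these libraries for 1 gene at a time. They are not adjusted over genes, so they do not bound what the test could miss. For Bdnf, the 95% intervals of the fold against controls within a sex lay between 0.80 (OPFR males) and 1.36 (FM550 males). For Ntrk2 they lay between 0.83 (OPFR males) and 1.11 (FM550 females). These bounds hold for the pooled controls. With a term for libraries 1 to 7 or without them, the intervals in males were wider, as the plot of intervals shows, because 1 control male lies outside that set and is assumed to vary like the other groups.

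With the term, Bdnf had log2 fold changes of -0.093 ± 0.206, -0.20 ± 0.21 and -0.030 ± 0.206 for BFR, OPFR and FM550 males (edgeR adjusted p = 1.00, 0.999 and 1.00). Without the 7 libraries they were -0.034 ± 0.273, -0.15 ± 0.27 and 0.024 ± 0.274. Ntrk2 in males had 0.0025 ± 0.1099, -0.054 ± 0.110 and 0.034 ± 0.110 with the term, against 0.033 ± 0.148, -0.030 ± 0.147 and 0.060 ± 0.148 when the 7 were left out. The value for BFR males changed sign for both genes in both fits. The value for FM550 males did so for Ntrk2 in both fits and for Bdnf with the term only. In females, Bdnf had 0.062 ± 0.157, -0.055 ± 0.164 and -0.0027 ± 0.1574 with the term, against 0.056 ± 0.165, -0.070 ± 0.171 and -0.016 ± 0.165 when the 7 were left out. Ntrk2 in females had -0.026 ± 0.084, -0.049 ± 0.087 and 0.012 ± 0.084 with the term, against -0.024 ± 0.088, -0.057 ± 0.092 and 0.0057 ± 0.0883 when the 7 were left out. In females the sign changed in both fits for Bdnf with OPFR and FM550 and for Ntrk2 with FM550. Neither gene was called in either fit. The share of genes called was 1.42% for OPFR females and 0.525% for OPFR over both sexes with the term, 0.382% and 0.0222% without the 7 libraries, and 0% in the other comparisons with control.

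**Figure D3:**
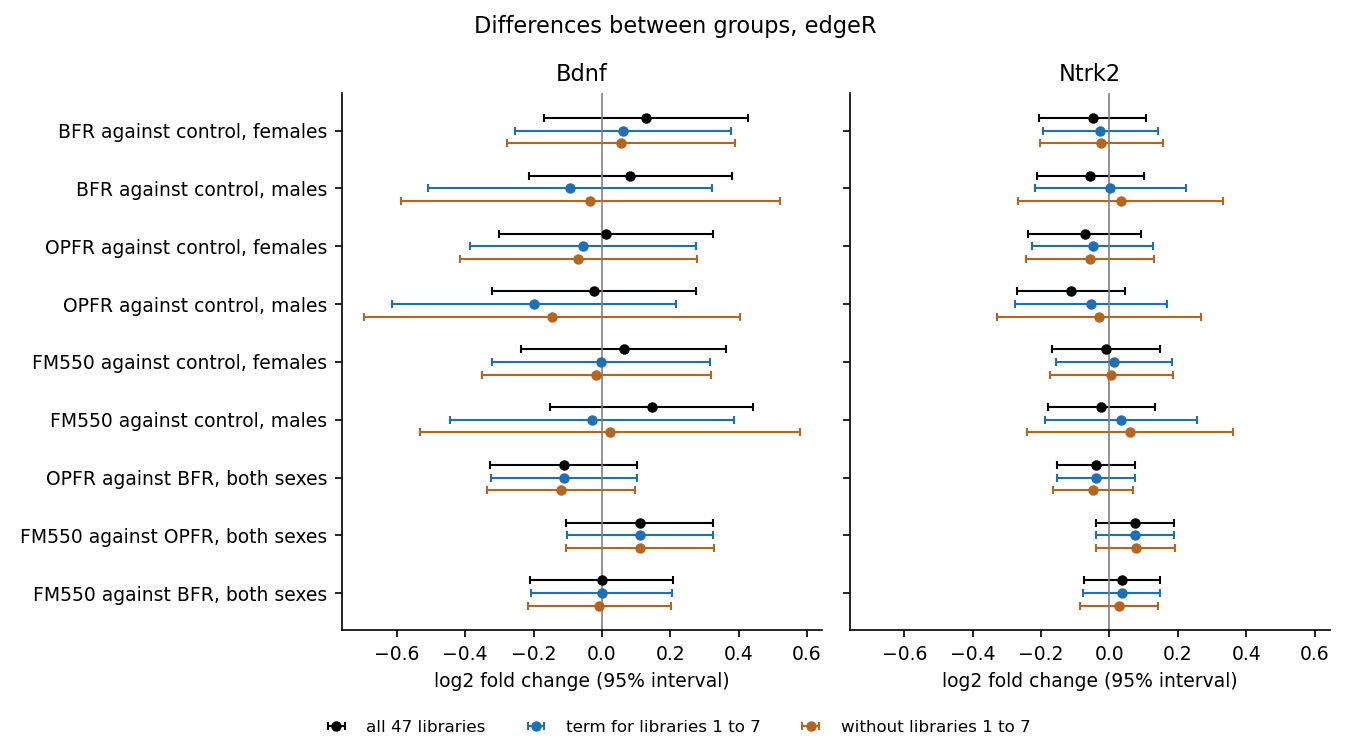
Log2 fold changes (horizontal axis) of Bdnf (left) and Ntrk2 (right) with 95% intervals from edgeR for 9 comparisons, on all 47 libraries (black), with a term for the control libraries titled 1 to 7 (blue) and without those libraries (brown). Every interval contains 0, and those of Ntrk2 are narrower than those of Bdnf.

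The controls titled 1 to 7 were also set against those titled 8 to 12. Bdnf averaged 1.85 ± 0.34 CPM in the first 7 and 2.00 ± 0.28 CPM in the other 5 (SD). The difference in mean log2 CPM was -0.11 (exact permutation test over all divisions, two-sided p = 0.414, adjusted over the 2 genes 0.582). The permutation test took no account of sex, and males are more frequent among the first 7. Ntrk2 averaged 491 ± 36 and 479 ± 27 CPM, a log2 difference of 0.034 (exact permutation p = 0.582, adjusted 0.582). With sex in the model, edgeR gave -0.21 ± 0.17 for Bdnf and 0.070 ± 0.066 for Ntrk2 (adjusted p = 0.470 and 0.548), while 15% of genes tested were called. For 12.8% of genes these 7 and 5 libraries did not overlap in CPM, and Bdnf and Ntrk2 were not among them.

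No difference between the sexes passed the test for either gene. Averaged over the 4 treatments, males minus females was 0.087 ± 0.075 on the log2 scale for Bdnf and -0.045 ± 0.039 for Ntrk2 (edgeR adjusted p = 0.999 for each), where 0.128% of genes were called. The sex by exposure interactions, male minus female effect, were -0.046 ± 0.208, -0.035 ± 0.214 and 0.083 ± 0.209 for Bdnf with BFR, OPFR and FM550. For Ntrk2 they were -0.0062 ± 0.1102, -0.040 ± 0.113 and -0.013 ± 0.110. Without OPFR females 4 and 5, the Ntrk2 interaction with OPFR was -0.20 ± 0.10 (95% interval -0.40 to -0.0072, edgeR unadjusted p = 0.0425, adjusted p = 0.609), and that of Bdnf was -0.18 ± 0.23. Males minus females for Ntrk2 was then -0.084 ± 0.033 (edgeR unadjusted p = 0.0137, adjusted p = 1.00). On all libraries, the lowest edgeR adjusted p among the 6 interactions was 0.932, and 0% of genes had an interaction called, with 646, 1426 and 1560 at an unadjusted p under 0.05. Intervals of the Bdnf interactions reached from -0.47 to 0.50, so they still held moderate differences between the sexes in either direction.

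Averaged over both sexes, Bdnf had log2 fold changes against control of 0.11 ± 0.10 with BFR, -0.0059 ± 0.1071 with OPFR and 0.10 ± 0.10 with FM550 (edgeR adjusted p = 0.549, 0.977 and 0.615). Ntrk2 had -0.053 ± 0.055, -0.092 ± 0.057 and -0.017 ± 0.055 (edgeR adjusted p = 0.575, 0.255 and 0.902). The background shares called were 12.4%, 19.3% and 8.13%. The OPFR value of Ntrk2 had the lowest adjusted p of the 44 tests made on the 2 genes. These 3 comparisons share the control libraries.

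The exposures were also compared directly, so that control libraries bear on the spread but not on the difference. Bdnf was -0.11 ± 0.11 in OPFR against BFR, 0.11 ± 0.11 in FM550 against OPFR and -0.00061 ± 0.10344 in FM550 against BFR (log2, both sexes, SE; edgeR adjusted p = 0.564, 0.592 and 0.999). Ntrk2 was -0.040 ± 0.056, 0.075 ± 0.057 and 0.035 ± 0.055 (edgeR adjusted p = 0.722, 0.476 and 0.913). The 95% intervals ran from -0.33 to 0.10, -0.10 to 0.33 and -0.21 to 0.21 for Bdnf, and from -0.15 to 0.074, -0.039 to 0.19 and -0.076 to 0.15 for Ntrk2. The background shares were 4.75%, 0.00584% and 0.204%. FM550 was given at 2000 µg and the others at 1000 µg, so these are differences between groups as dosed.

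Direct comparisons within a sex passed the test for neither gene. In females Bdnf was -0.12 ± 0.15 in OPFR against BFR, 0.052 ± 0.155 in FM550 against OPFR and -0.065 ± 0.147 in FM550 against BFR. In males it was -0.11 ± 0.15, 0.17 ± 0.15 and 0.064 ± 0.147. Ntrk2 in females was -0.023 ± 0.082, 0.061 ± 0.082 and 0.039 ± 0.078, and in males -0.056 ± 0.078, 0.088 ± 0.078 and 0.032 ± 0.078. None of these was called by edgeR. The shares of genes called were 1.25%, 0.747% and 0% in females and 0%, 0% and 0.00584% in males.

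Within OPFR, Ntrk2 separated along the title numbers. The OPFR libraries titled 25 to 30 measured 466, 511, 460, 538, 497 and 521 CPM, and those titled 31 to 35 measured 378, 340, 449, 425 and 420 CPM. The first 6 averaged 499 ± 31 CPM and the last 5 averaged 403 ± 43 CPM (SD), and the sets did not overlap. The first 6 lay inside the range of the other groups, 409 to 567 CPM, while 2 of the last 5 lay below it. Earlier results over many genes had shown this division, and its description for Ntrk2 was added after seeing the data. It was therefore not tested. For 3.99% of genes tested these sets did not overlap, and for 2.52% the first 6 all lay above the last 5. On CPM from total counts without scaling the sets did overlap, at 459 to 521 CPM and 375 to 463 CPM. The scaling factors of the last 5 libraries were 1.00 to 1.10, against 0.968 to 0.999 for the first 6, and their part in the difference was not tested.

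Bdnf in the same libraries was 2.06 ± 0.11 CPM in titles 25 to 30 and 1.73 ± 0.36 CPM in titles 31 to 35 (SD, n = 6 and 5). Of the last 5, the libraries at 1.39, 1.67, 1.78 and 1.50 CPM lay below all of the first 6, and OPFR male 6, at 2.32 CPM, lay above them all. Both genes therefore had their lower OPFR values in the later titles, with that exception for Bdnf. The labels do not say what the title numbers stand for.

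Some OPFR values changed sign without these libraries and others kept it. OPFR titles 31 to 35 held the lowest Ntrk2 values of each OPFR sex, so a rise of Ntrk2 without them was bound to follow. Without OPFR females 4 and 5, Ntrk2 in OPFR against control females was 0.088 ± 0.075, in place of -0.072, and Bdnf was 0.15 ± 0.18, in place of 0.011 (edgeR adjusted p = 0.985 and 0.999). Over both sexes, Ntrk2 was then -0.014 ± 0.049. Without all OPFR libraries titled 31 to 35, Ntrk2 over both sexes was 0.025 ± 0.051, in place of -0.092, and Bdnf was 0.095 ± 0.121 (edgeR adjusted p = 0.831 and 0.707). In OPFR males, Ntrk2 was -0.030 ± 0.072, in place of -0.11, and Bdnf was 0.049 ± 0.171, in place of -0.023. Neither gene was called with or without these libraries. Without OPFR females 4 and 5, 0.439% of genes were called in OPFR against control females and 7.75% over both sexes. Without titles 31 to 35, the shares for OPFR against control were 0.255% in females, 3.62% in males and 5.34% over both sexes.

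**Figure D4:**
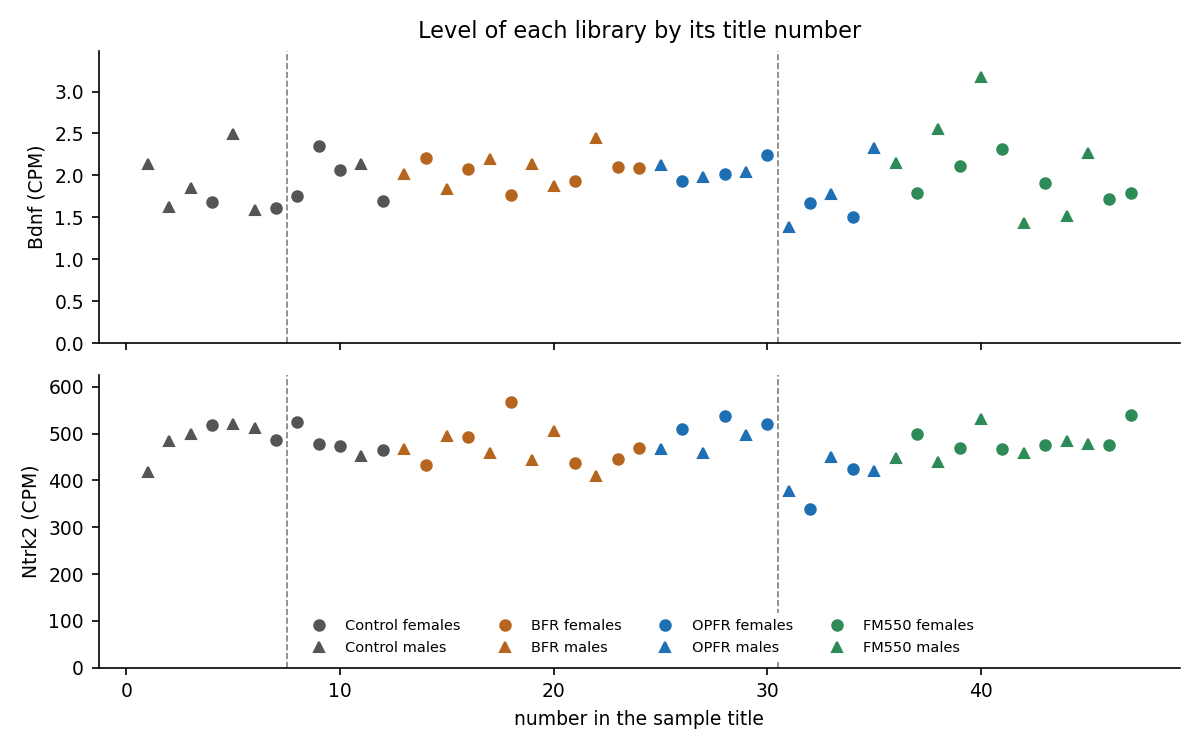
Bdnf (top) and Ntrk2 (bottom) in CPM, each from 0, for every library by the number in its sample title (horizontal axis). Colours mark treatment, circles females and triangles males, and dashed lines stand after titles 7 and 30. Ntrk2 is at 460 to 538 CPM in OPFR titles 25 to 30 and at 340 to 449 CPM in titles 31 to 35.

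FM550 males had the largest SD of the 8 groups for Bdnf, 0.65 CPM. FM550 males 3 and 2 held 3.17 and 2.56 CPM, and FM550 males 4 and 5 held 1.43 and 1.52 CPM. FM550 male 3 was also the highest FM550 male for Ntrk2, at 531 CPM, while FM550 male 2 was the lowest, at 439 CPM. By the ratio of the gap beside an extreme library to the group's range, no library stood alone in any of the 16 sets of a gene and a group; the highest ratio was 0.567.

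No relation between ligand and receptor across libraries passed the test, and its sign depended on the libraries and scaling. In the 40 libraries titled 8 to 47, Pearson's r of log2 CPM was 0.15 (permutation p = 0.348) and Spearman's rho -0.098 (permutation p = 0.543). Without the 2 libraries farthest from the median of Bdnf, titled 31 and 40, r was -0.097 and rho -0.26. With group means taken out, r was 0.16 (p = 0.358, permuted within groups) and rho 0.029 (permutation p = 0.868). In the 7 controls titled 1 to 7, r was -0.18 and rho 0.14 (exact permutation p = 0.731 and 0.783). Adjusted over these 6 relations, each p was 0.868. On CPM from total counts without scaling, r in titles 8 to 47 was -0.037 and rho -0.25. On scaled CPM without OPFR females 4 and 5, r in these titles was 0.012 and rho -0.25. With titles 31 and 40 also left out, r was -0.40 and rho -0.45. Values without the farthest libraries were not tested.

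**Figure D5:**
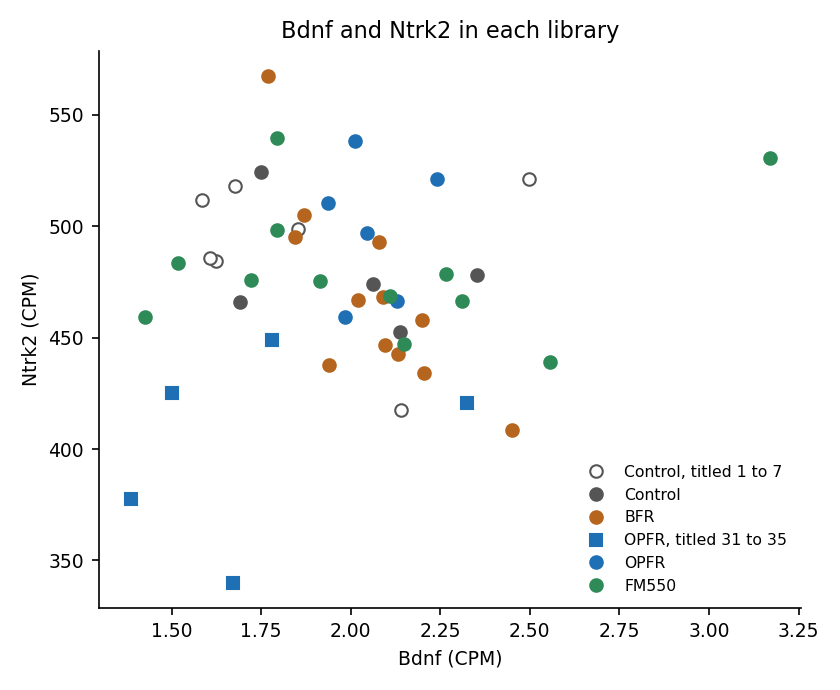
Ntrk2 in CPM (vertical axis) against Bdnf in CPM (horizontal axis), one point per library, with axes that do not start at 0. Open circles are controls titled 1 to 7 and squares OPFR titled 31 to 35. In titles 8 to 47, r was 0.15 and rho -0.098, and without titles 31 and 40 they were -0.097 and -0.26.

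Across the libraries titled 8 to 47, more genes followed Ntrk2 from library to library than followed Bdnf. Likeness was measured as Pearson's r of log2 CPM over the 40 libraries titled 8 to 47 after group means were taken out, among genes whose log2 CPM averaged 1 or more, as a description of libraries that share depth and scaling. For Ntrk2, 1745 of 12838 genes had r above 0.5, and for Bdnf 186 of 12839 did. The 40 libraries include OPFR titles 31 to 35, where Ntrk2 was low, and the genes were not counted again without them. Counting error was larger for Bdnf, and its part in these counts was not tested. The genes most like Ntrk2 were ENSRNOG00000058866 (r = 0.92) and ENSRNOG00000026310 (r = 0.91). Without the OPFR libraries titled 31 to 35 these were 0.86 and 0.81, and in the 7 controls titled 1 to 7 they were 0.90 and 0.42. The genes most like Bdnf were ENSRNOG00000011891 (r = 0.68) and ENSRNOG00000014107 (r = 0.67), at 0.55 and 0.58 without OPFR titles 31 to 35. In the first 7 controls these were -0.012 and -0.32. The genes most like each member were picked for the highest r in the 40 libraries, so lower values elsewhere were likely. A set of 7 libraries is too small to tell whether a likeness is absent. Ntrk2 ranked 4280 in likeness to Bdnf, with r = 0.16, and r = -0.18 without OPFR titles 31 to 35.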

How the data were processed

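The authors deposited 1 table of whole-number read counts per Ensembl gene ID, with no normalization. Total RNA (RNeasy) was poly(A)-selected and made into directional libraries, per the labels' protocols. FastQC, featureCounts and DESeq2 are named, per the submitters' processing notes. For the aligner, genome build and strand setting nothing is stated in these sources, and reads of overlapping or antisense genes were left as counted. The 15 entries naming no gene held no value. Columns were matched to samples by the number in the title.

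The test was the quasi-likelihood F test of edgeR 4.0.16 (R 4.3.3). Genes passed filterByExpr (minimum count 10, minimum total 15), libraries were TMM-scaled (factors 0.950 to 1.10), and 1 quasi-likelihood model with 8 group means was fitted to all 47 libraries, with Benjamini-Hochberg adjustment over 17135 genes and a threshold of 0.05, two-sided. Standard errors come from the F statistic. Log2 CPM used a prior count of 2. The procedure was tested on simulated data. Changes were planted there only in genes with a higher mean CPM than Bdnf, and no set of libraries was made to stand apart. Permutation tests used all divisions or pairings, or 100000 resamples. The members and lists were chosen with earlier results of these data known. Alternatives were DESeq2 1.42.0, limma 3.58.1 voom with sample weights, RLE scaling, no filter, fewer groups or libraries, and terms for libraries 1 to 7 or library size. The description by OPFR titles was added after seeing the data. None of the 47357 genes in the RefSeq table used here carries an Ensembl ID, so the neurotrophin genes and cell type markers listed beforehand by symbol were not tested. The genes named were the 2 members and the 2 genes most like each.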

Additional observations from a re-analysis of the deposited data

How the results depend on the processing

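Bdnf and Ntrk2 were called in 0 of the 44 comparisons by edgeR on all libraries. They were called in 0 of 482 values under the alternatives, and in 0 of 800 with 1 library left out at a time. The lowest edgeR adjusted p was then 0.101, for Ntrk2 in OPFR against control over both sexes without OPFR female 2 (log2 fold change -0.12). All these values refit overlapping sets of the same libraries, so they are not independent. The share of all genes called varied with the fit. For OPFR against control over both sexes it was 20.5% with RLE scaling and 0.0222% without libraries 1 to 7. Shares for fits with 1 library left out are not given here. The signs were not stable: 33 of 241 values for Bdnf and 45 of 241 for Ntrk2 had the opposite sign to the value on all libraries, as did 41 and 24 of 400 each with 1 library left out. No value on either side of such a change was past the threshold, and the cause was not tested. DESeq2, RLE scaling, no filter and a fit of only the groups compared changed 0 signs. No paired analysis was possible because the labels give no litter or other pairing of samples. The SE of Bdnf against control within a sex was 0.15 to 0.16. Of values that kept their sign, the Ntrk2 sex by OPFR interaction moved from -0.040 to -0.20 and males minus females for Ntrk2 from -0.045 to -0.084 without OPFR females 4 and 5; the latter was -0.10 without libraries 1 to 7 as well and -0.067 in limma voom.

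The values of opposite sign, as log2 differences, follow. In limma voom with sample weights, Bdnf was 0.085 for OPFR against control in males, 0.089 for OPFR against control over both sexes, -0.0043 for FM550 against control in females, 0.0028 for OPFR against BFR in females and 0.00080 for OPFR against BFR over both sexes. Bdnf was also -0.096 for FM550 against OPFR in females, -0.010 for FM550 against OPFR in males, -0.053 for FM550 against OPFR over both sexes and -0.012 for FM550 against BFR in males. Ntrk2 was 0.068 for OPFR against control in females, 0.012 for FM550 against control in females, 0.12 for OPFR against BFR in females, 0.033 for OPFR against BFR over both sexes and -0.056 for FM550 against OPFR in females. With a term for libraries 1 to 7, Bdnf was -0.093 for BFR against control in males, -0.016 for BFR against control over both sexes, -0.055 for OPFR against control in females, -0.0027 for FM550 against control in females and -0.030 for FM550 against control in males. Bdnf was also -0.016 for FM550 against control over both sexes and -0.027 for the sex by FM550 interaction. Ntrk2 was 0.0025 for BFR against control in males, 0.029 for the sex by BFR interaction, 0.012 for FM550 against control in females, 0.034 for FM550 against control in males and 0.023 for FM550 against control over both sexes. Ntrk2 was also 0.022 for the sex by FM550 interaction. With a term for log2 library size, Bdnf was -0.020 for OPFR against control in females, 0.00016 for the sex by OPFR interaction and 0.0070 for FM550 against BFR over both sexes. Without OPFR females 4 and 5, Bdnf was 0.061 for OPFR against control over both sexes, 0.016 for OPFR against BFR in females and -0.083 for FM550 against OPFR in females. Ntrk2 was 0.088 for OPFR against control in females, 0.13 for OPFR against BFR in females, 0.040 for OPFR against BFR over both sexes, -0.096 for FM550 against OPFR in females and -0.0058 for FM550 against OPFR over both sexes. Without OPFR libraries 31 to 35, Bdnf was 0.049 for OPFR against control in males, 0.095 for OPFR against control over both sexes, 0.0081 for OPFR against BFR in females and -0.078 for FM550 against OPFR in females. Ntrk2 was 0.080 for OPFR against control in females, 0.025 for OPFR against control over both sexes, 0.12 for OPFR against BFR in females, 0.027 for OPFR against BFR in males and 0.076 for OPFR against BFR over both sexes. Ntrk2 was also -0.092 for FM550 against OPFR in females, -0.0021 for FM550 against OPFR in males and -0.047 for FM550 against OPFR over both sexes. Without libraries 1 to 7, Bdnf was -0.034 for BFR against control in males, -0.070 for OPFR against control in females and -0.016 for FM550 against control in females. Ntrk2 was 0.033 for BFR against control in males, 0.0046 for BFR against control over both sexes, 0.057 for the sex by BFR interaction, 0.027 for the sex by OPFR interaction and 0.0057 for FM550 against control in females. Ntrk2 was also 0.060 for FM550 against control in males, 0.033 for FM550 against control over both sexes and 0.055 for the sex by FM550 interaction. Without both those 7 libraries and OPFR females 4 and 5, Bdnf was -0.034 for BFR against control in males, -0.016 for FM550 against control in females, 0.0048 for OPFR against BFR in females and -0.079 for FM550 against OPFR in females. Ntrk2 was 0.032 for BFR against control in males, 0.0045 for BFR against control over both sexes, 0.055 for the sex by BFR interaction, 0.098 for OPFR against control in females and 0.034 for OPFR against control over both sexes. Ntrk2 was also 0.0063 for FM550 against control in females, 0.059 for FM550 against control in males, 0.033 for FM550 against control over both sexes, 0.053 for the sex by FM550 interaction and 0.12 for OPFR against BFR in females. Ntrk2 was also 0.029 for OPFR against BFR over both sexes, -0.092 for FM550 against OPFR in females and -0.0012 for FM550 against OPFR over both sexes. With 1 library left out at a time, Bdnf ranged from -0.069 to 0.048 for FM550 against BFR over both sexes, -0.074 to 0.16 for FM550 against BFR in males and -0.017 to 0.12 for FM550 against OPFR in females. Bdnf also ranged from -0.046 to 0.033 for OPFR against control over both sexes, -0.062 to 0.090 for OPFR against control in females and -0.081 to 0.055 for OPFR against control in males. Bdnf also ranged from -0.13 to 0.033 for the sex by BFR interaction, -0.055 to 0.18 for the sex by FM550 interaction and -0.12 to 0.044 for the sex by OPFR interaction. With 1 library left out at a time, Ntrk2 ranged from -0.0093 to 0.053 for FM550 against BFR in males, -0.029 to 0.12 for FM550 against OPFR in females and -0.042 to 0.0051 for FM550 against control in females. Ntrk2 also ranged from -0.062 to 0.00041 for FM550 against control in males, -0.086 to 0.061 for OPFR against BFR in females and -0.13 to 0.016 for OPFR against control in females. Ntrk2 also ranged from -0.044 to 0.051 for the sex by BFR interaction, -0.051 to 0.011 for the sex by FM550 interaction and -0.14 to 0.011 for the sex by OPFR interaction. For the correlation of Bdnf with Ntrk2 in titles 8 to 47, CPM from total counts gave r = -0.037, and, with group means taken out, r = -0.034 and rho = -0.17. Without OPFR females 4 and 5, the correlations with group means taken out were r = -0.0050 and rho = -0.19.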
